A study of Mus musculus with 30 samples.

Results

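The genes described here are 31 genes by which fat cells are recognised, followed in mouse back skin after inflammation with the chemical irritant TPA. They were chosen by name, from the gene symbols printed on the array, as genes of the adipocytes that lie in the dermis and under it. The choice was made with earlier results of these data known. Of the 31 genes, 30 had at least 1 probe set among the 22121 gene symbols measured, through 59 of the 45037 probe sets that were not controls, and 29 had a level high enough to be tested. Plin1, the perilipin that coats the fat droplet of adipocytes, was not analysed here under its symbol. Ucp1, the uncoupling protein of brown fat, was measured but fell below the filter on low values, and 7 of the 59 probe sets in all did so.

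The study asked how the skin of mice without D6, a receptor that scavenges inflammatory CC chemokines, responds to TPA (12-O-tetradecanoylphorbol-13-acetate) in comparison with wild type (WT) skin. All mice were females of the mixed 129–C57BL/6 strain, 8 to 12 weeks old, and their shaved back skin received 3 applications of either 50 µM TPA in acetone or acetone alone, a day apart. The 10 groups were WT skin and D6-deficient skin, each at day 0 (acetone only) and on days 1, 2, 4 and 6 counted from the final TPA application, with 3 arrays from 3 mice in every group. Whole skin was ground, so each array held the RNA of epidermis, dermis, fat and muscle together. Fewer fat cells in the piece of skin and less of a given RNA in each fat cell therefore cannot be told apart. Levels are log2 intensities, in which a step of 1 is a 2-fold change, and each gene is quoted by its probe set with the highest mean over all 30 arrays.

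White adipocytes store triglyceride in a single large droplet and release it as fatty acids and glycerol when hormones ask for it. Lipoprotein lipase, CD36 and fatty acid binding protein 4 bring fatty acids in, acyltransferases join them to glycerol phosphate, perilipins and CIDEC guard the droplet, and a chain of lipases empties it. The transcription factors PPARγ and C/EBPα hold this programme in place, and the cells secrete adiponectin, leptin, resistin and adipsin into the blood. In the skin such cells form a layer below the dermis that thickens and thins with the hair cycle and can respond to infection and wounding.

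The identity of the arrays was checked first. On 1 of the 3 probe sets of the D6 gene (listed as Ccbp2) the 15 D6-deficient arrays read 3.30 to 3.86 and the 15 WT arrays read 4.15 to 5.76, so that the genotypes did not overlap. On the other 2 probe sets they did overlap, with 4.55 to 5.42 against 5.14 to 6.26 and 6.59 to 8.09 against 6.69 to 8.54. Medians of the arrays lay between 5.64 and 5.80. Adipocyte RNA was plain in every group: Adipoq, which encodes adiponectin, read between 12.17 and 14.13 on the 30 arrays, Cfd, which encodes adipsin, between 14.00 and 14.58, and Cidec between 9.83 and 12.28. Lep, which encodes leptin, was more variable, from 6.49 to 9.59, and Ucp1 stayed between 3.20 and 4.52.

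Sequence upstream of the start site was available from RefSeq (GRCm38.p6) for 19 of the 31 genes, as 26 windows of 250 bases before to 50 bases after a start. Of the 26 windows 5 held the letters TTGCNNAA on either strand, a short form of the motif that C/EBP factors bind, in Cidec, Lep, Plin1, Pparg and Rbp4, against 10.8% of 32851 windows over all genes. The repeat bound by PPARγ with its partner, known as DR1, was searched in a relaxed form and was in 0 of the 26 windows and 0.381% of all windows, which says only that these letters are not in these stretches. A TATAAA stood in windows of Cebpa, Pparg and Rbp4, against 13.6% of all windows, CACGTG in 1 (Lipe, 7.15%) and CCAAT in 7 windows of 6 genes (37.4%). A match is a description of the letters and not a site shown to be used. The 3 stretches below are the bases before the start of Rbp4 (chr19:38124812-38125061, minus strand), Cidec (chr6:113434765-113435014, minus strand) and Lep (chr6:29059971-29060220, plus strand), with the TTGCNNAA match in capitals. They are shown because the Rbp4 and Cidec levels described below fell in WT skin by day 4 and the Lep level did not pass the test, although all 3 stretches hold the match. The match in Rbp4 reads on the opposite strand.
Rbp4: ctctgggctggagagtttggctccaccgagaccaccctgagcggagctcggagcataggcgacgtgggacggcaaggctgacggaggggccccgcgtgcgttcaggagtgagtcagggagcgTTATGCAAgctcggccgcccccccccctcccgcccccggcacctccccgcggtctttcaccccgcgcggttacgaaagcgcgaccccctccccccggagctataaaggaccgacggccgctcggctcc
Cidec: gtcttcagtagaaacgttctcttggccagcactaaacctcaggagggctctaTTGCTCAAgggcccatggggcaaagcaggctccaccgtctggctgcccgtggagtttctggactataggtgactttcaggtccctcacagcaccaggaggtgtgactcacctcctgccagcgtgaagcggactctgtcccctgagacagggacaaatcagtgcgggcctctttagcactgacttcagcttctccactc
Lep: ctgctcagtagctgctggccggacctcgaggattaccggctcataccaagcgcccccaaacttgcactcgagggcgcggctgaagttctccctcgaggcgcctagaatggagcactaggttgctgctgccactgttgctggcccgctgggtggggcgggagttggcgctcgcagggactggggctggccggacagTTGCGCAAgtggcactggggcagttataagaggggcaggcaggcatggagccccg

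The adipocyte genes as a group were lowest on day 4 in WT skin, where 21 of the 29 tested genes fell and 1 rose. Genes of adiponectin, resistin, retinol binding protein, triglyceride synthesis, fat uptake and lipolysis were all among those that fell, by 1.34-fold for Cfd to 4.75-fold for Rbp4, and Angptl4 was the single gene that rose. The median change of the 29 genes was -0.86 on the log2 scale, against 0.01 for all 36029 probe sets tested. The 21 genes were 72.4% of the group, while 21.8% of all probe sets were called lower and 17.3% higher at the same day. Members count by their brightest probe set, while the share of all probe sets includes dim ones. A gene was called where limma's moderated test, with Benjamini-Hochberg adjustment over all probe sets tested, gave an adjusted p under 0.05. On day 2 of WT skin 5 genes fell and 0 rose (15% of all probe sets lower, 11.0% higher), with 6 and 0 at an unadjusted p under 0.05 (20.8% of all probe sets lower at that threshold). On day 1 of WT skin 1 gene fell and 0 rose (12.7% lower, 11.4% higher), with 2 and 0 at an unadjusted p (18.4% lower). On day 6 of WT skin 3 genes fell and 0 rose (11.9% lower, 10.2% higher), with 6 and 0 at an unadjusted p (18.0% lower). On days 1, 2 and 6 the share of members that fell was near or under that of all probe sets. The day 1 count was 4 without replicate 2 of that day, and the day 6 count was 1 without replicate 3 of day 0 or of day 6.

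In D6-deficient skin fewer genes passed the test on day 4. There 9 genes fell and 2 rose, where 22.4% of all probe sets were lower and 18.8% higher, so that 9 of 29 lay closer to the share among all probe sets than the WT count did. The median change was -0.19. On day 1 of D6-deficient skin 3 genes fell and 1 rose (18.1% of all probe sets lower, 18.2% higher), on day 2 6 fell and 1 rose (20.6% and 17.5%), and on day 6 2 fell and 1 rose (15.7% and 16.0%). In each of these 3 comparisons the share of members called in either direction was near or under that of all probe sets. The day 2 count of 7 was 4 without day 0 replicate 1 or 2 or day 2 replicate 3, and 3 without day 2 replicate 2, and the day 6 count of 3 was 5 without day 6 replicate 3. Whether the 2 genotypes differ in these changes is a separate comparison, given after the single genes.

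**Figure D1:**
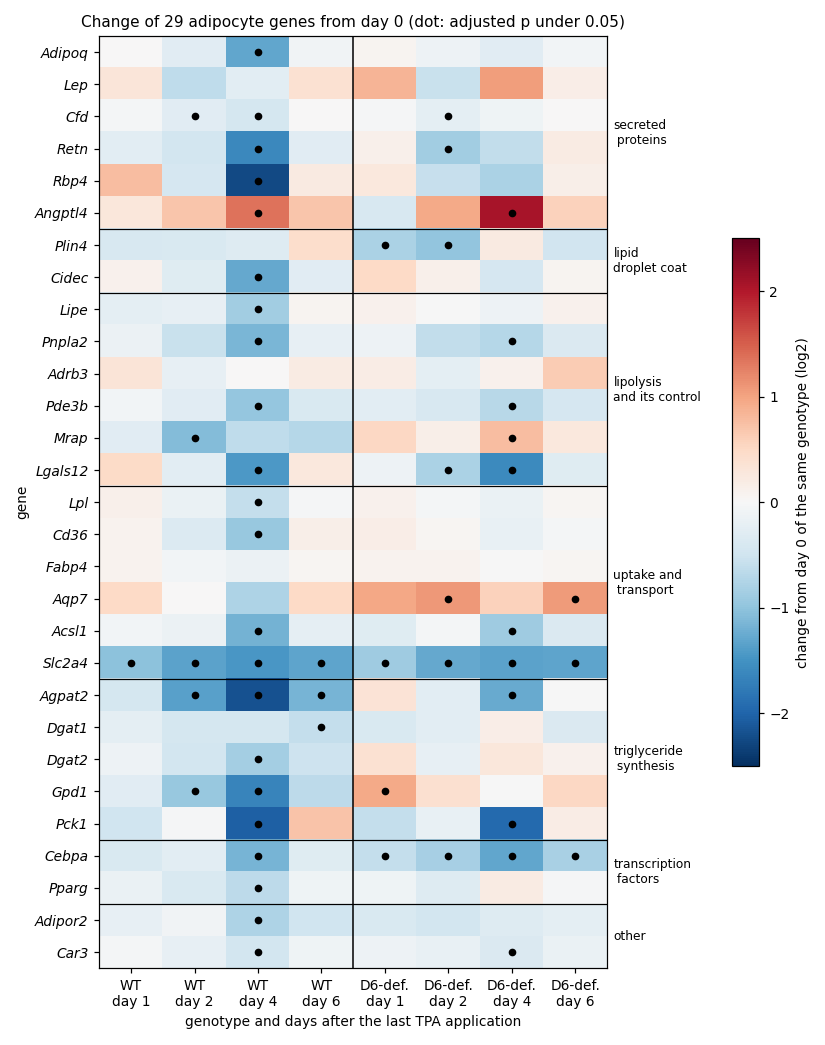
Change of each of the 29 tested adipocyte genes (rows, grouped by role) from day 0 of its own genotype, on the log2 scale, at each day (columns; blue lower, red higher, black dot for an adjusted p under 0.05). The WT day 4 column holds 21 blue cells with a dot and 1 red one, Angptl4, while the D6-deficient day 4 column holds 9 and 2.

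Among the secreted products, Adipoq fell by day 4 in WT skin and Angptl4 rose in both genotypes. In WT skin Adipoq read 13.96, 13.76 and 13.89 on day 0, 13.67, 14.13 and 13.81 on day 1, 13.69, 13.25 and 13.84 on day 2, 12.74, 12.85 and 12.17 on day 4, and 13.87, 13.59 and 13.89 on day 6. D6-deficient skin gave 13.74, 13.75 and 13.70 on day 0, 13.64, 13.86 and 13.87 on day 1, 13.52, 13.68 and 13.61 on day 2, 12.85, 13.86 and 13.66 on day 4, and 13.58, 13.36 and 14.09 on day 6. The 3 WT day 4 arrays lay below all other WT arrays, and the D6-deficient day 4 arrays were spread, with replicate 1 at the level of the WT arrays of that day and the other 2 at the level of day 0. The change was -1.29 ± 0.21 (log2, SE; 2.44-fold lower; adjusted p = 4.2e-05) in WT skin and -0.28 ± 0.21 (adjusted p = 0.32) in D6-deficient skin.

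Rbp4, which encodes retinol binding protein 4, a carrier of vitamin A that adipocytes also release, showed the largest fall of all members. The WT arrays read 10.20, 10.23 and 10.64 on day 0, 10.65, 11.83 and 10.90 on day 1, 10.15, 9.31 and 10.34 on day 2, 8.90, 8.18 and 7.25 on day 4, and 10.88, 10.23 and 10.65 on day 6. Among D6-deficient mice the values were 10.31, 10.02 and 10.07 on day 0, 10.14, 10.09 and 10.95 on day 1, 9.23, 9.73 and 9.70 on day 2, 8.30, 10.05 and 9.64 on day 4, and values between 9.84 and 10.97 on day 6. The WT day 4 arrays stood apart from the other WT arrays, and day 1 replicate 2 was the highest of all 30. The fall was -2.25 ± 0.42 (4.75-fold; adjusted p = 0.00014) in WT skin by day 4, and the D6-deficient value was -0.80 ± 0.42 (adjusted p = 0.13).

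Retn, which encodes resistin, fell by day 4 in WT skin and by day 2 in D6-deficient skin. WT skin gave 13.24, 12.97 and 13.41 on day 0, 12.98, 12.90 and 12.91 on day 1, 13.06, 12.41 and 12.75 on day 2, 11.94, 11.45 and 11.38 on day 4, and 13.11, 12.91 and 12.73 on day 6. The D6-deficient arrays read 11.98, 12.03 and 12.21 on day 0, 11.67, 12.42 and 12.49 on day 1, 11.01, 11.17 and 11.43 on day 2, 10.58, 12.19 and 11.59 on day 4, and 11.85, 12.02 and 12.97 on day 6. Every D6-deficient array of days 0, 1 and 2 read lower than every WT array of the same day, while on days 4 and 6 the genotypes overlapped. The fall in WT skin by day 4 was -1.61 ± 0.30 (3.06-fold; adjusted p = 0.00014), and in D6-deficient skin it was -0.87 ± 0.30 (adjusted p = 0.024) by day 2 and -0.62 ± 0.30 (adjusted p = 0.1) by day 4. The day 2 call in D6-deficient skin was lost without day 0 replicate 3 or day 2 replicate 1 or 2.

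Angptl4, which encodes an inhibitor of lipoprotein lipase, rose. The WT arrays read 9.49, 9.82 and 10.07 on day 0, 9.35, 11.23 and 9.63 on day 1, 10.62, 10.52 and 10.30 on day 2, 11.54, 10.52 and 11.38 on day 4, and 10.75, 10.12 and 10.61 on day 6. D6-deficient skin gave 9.46, 9.44 and 10.34 on day 0, 9.01, 9.55 and 9.44 on day 1, 10.40, 11.25 and 10.44 on day 2, 11.77, 12.09 and 11.57 on day 4, and 9.44, 10.72 and 10.82 on day 6. All day 4 arrays of either genotype lay above the day 0 arrays of that genotype, and the D6-deficient ones lay above every other D6-deficient array. The rise was 1.35 ± 0.40 (2.55-fold; adjusted p = 0.0087) in WT skin and 2.06 ± 0.40 (4.18-fold; adjusted p = 0.00018) in D6-deficient skin. Angptl4 is also expressed by cells other than adipocytes, and which cells gave this signal was not tested.

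The other 2 secreted products were Cfd and Lep. Cfd fell by 0.43 ± 0.09 (adjusted p = 0.00087) by day 4 in WT skin, its WT day 4 arrays lying between 14.00 and 14.14 against 14.44 to 14.54 on day 0. It also fell by 0.28 on day 2 in WT skin and by 0.24 on day 2 in D6-deficient skin, and its D6-deficient value on day 4 was -0.10 ± 0.09 (adjusted p = 0.44). Both day 2 calls were lost with each array centred on its median, and without WT day 0 replicate 1 or 3 or day 2 replicate 2 in the one genotype and without any D6-deficient array of day 0 or replicate 2 or 3 of day 2 in the other. Lep had the widest spread between replicates of all members, with an SE of 0.54. Its changes by day 4 were -0.26 (adjusted p = 0.74) in WT skin and 1.05 (adjusted p = 0.12) in D6-deficient skin, neither passing the test.

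**Figure D2:**
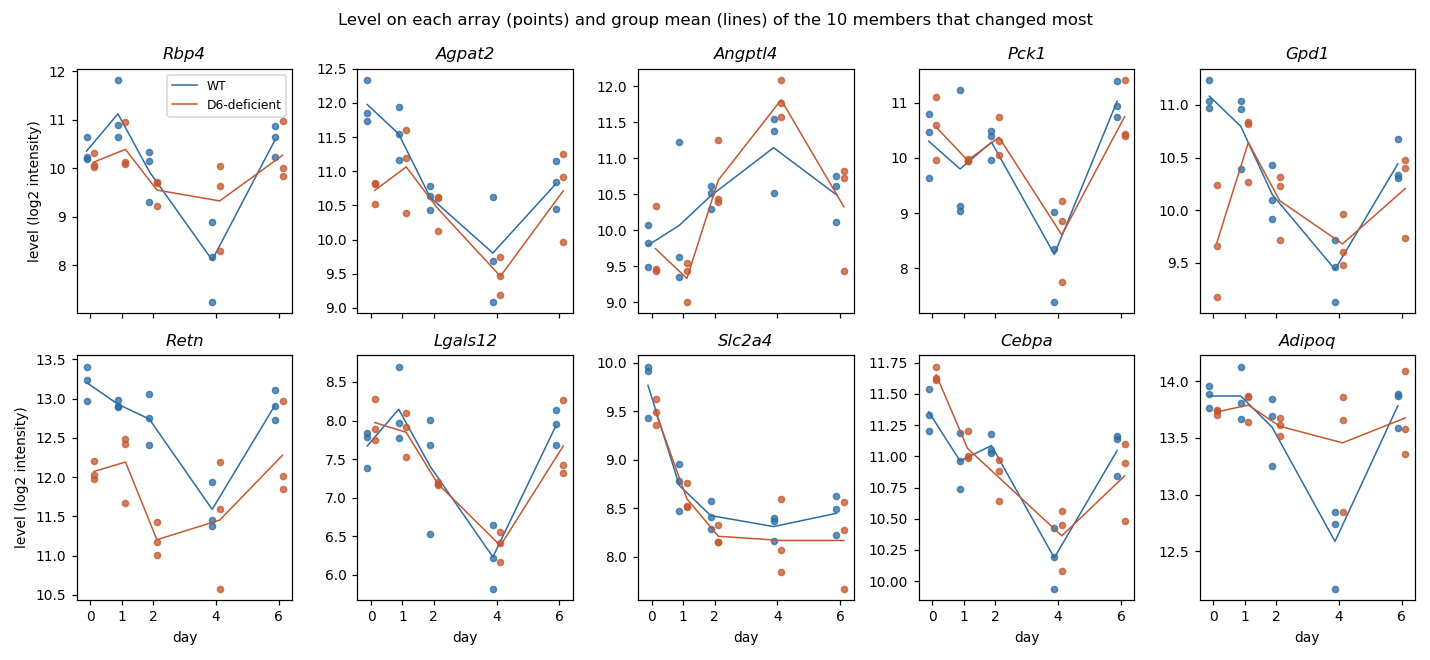
Log2 intensity of the 10 members with the largest change from day 0 (panels) against day, with every array as a point and group means joined by lines (blue WT, red D6-deficient, 3 arrays a group). The WT lines of Rbp4, Pck1, Lgals12, Retn, Cebpa, Adipoq, Gpd1 and Agpat2 reach their lowest mean on day 4 and are higher on day 6, Angptl4 peaks on day 4, and Slc2a4 stays low from day 1 on.

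Of the droplet coat proteins measured, Cidec, which makes droplets fuse, fell in WT skin from 11.60, 11.81 and 11.51 on day 0 to 10.54, 10.73 and 9.83 on day 4. The change was -1.27 ± 0.29 (2.41-fold; adjusted p = 0.0012), and in D6-deficient skin it was -0.42 ± 0.29 (adjusted p = 0.27). Plin4, a perilipin of small droplets, went another way. In D6-deficient skin it fell by 0.80 ± 0.29 (adjusted p = 0.032) on day 1 and by 0.98 ± 0.29 (adjusted p = 0.0091) on day 2, when its 3 arrays read 11.05, 11.09 and 11.20 against 12.16, 12.49 and 11.63 on day 0. Without day 0 replicate 2 neither passed (adjusted p = 0.15 and 0.062), and the day 1 call was also lost without day 0 replicate 1 or day 1 replicate 1 or 2. On day 4 the D6-deficient arrays read 12.30, 12.28 and 12.36. In WT skin no Plin4 change passed the test, the day 4 value being -0.33 ± 0.29 (adjusted p = 0.39).

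Lipolysis begins with Pnpla2 (adipose triglyceride lipase), goes on with Lipe (hormone-sensitive lipase), is switched on through the receptor Adrb3 and damped by the phosphodiesterase Pde3b. Of the 6 members in this group 4 fell by day 4 in WT skin (21.8% of all probe sets), and 3 fell and 1 rose in D6-deficient skin (22.4% and 18.8%). Pnpla2 fell by 1.15 ± 0.28 (adjusted p = 0.0022) in WT skin and by 0.71 ± 0.28 (adjusted p = 0.047) in D6-deficient skin. Its dim probe set was not called in WT skin (-0.18, adjusted p = 0.44). Pde3b fell by 0.97 ± 0.26 (adjusted p = 0.004) and 0.70 ± 0.26 (adjusted p = 0.031). Both D6-deficient calls were lost without day 0 replicate 1 or 2 or day 4 replicate 1 and with centring, that of Pde3b also without day 0 replicate 3, with adjusted p of up to 0.91 for Pnpla2 (its dim probe set) and 0.11 for Pde3b. Lipe fell in WT skin, by 0.86 ± 0.24 (adjusted p = 0.0065; lost without day 4 replicate 3), and its D6-deficient value was -0.13 ± 0.24 (adjusted p = 0.7). The Adrb3 value in D6-deficient skin was 0.11 ± 0.39 (adjusted p = 0.84), and in WT skin the day 4 arrays (7.93 to 8.94) spanned those of day 0 (8.34 to 8.89).

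Lgals12, which encodes galectin-12, a protein of the droplet surface that holds back lipolysis, fell in both genotypes. WT skin gave 7.84, 7.39 and 7.78 on day 0, 7.77, 8.70 and 7.97 on day 1, 7.68, 6.53 and 8.01 on day 2, 6.22, 6.65 and 5.82 on day 4, and 7.96, 7.68 and 8.14 on day 6. D6-deficient arrays gave 7.89, 8.28 and 7.75 on day 0, 7.53, 8.10 and 7.91 on day 1, 7.18, 7.17 and 7.20 on day 2, 6.16, 6.41 and 6.56 on day 4, and 7.42, 7.32 and 8.27 on day 6. In each genotype the day 4 arrays lay below all day 0 and day 6 arrays. The falls were -1.44 ± 0.30 (2.71-fold; adjusted p = 0.00054) and -1.59 ± 0.30 (3.01-fold; adjusted p = 0.00016), and the difference between them was -0.15 ± 0.43 (adjusted p = 0.96). Its other probe set gave smaller changes, -0.61 (adjusted p = 0.046) in WT skin and -0.68 (adjusted p = 0.026) in D6-deficient skin. Mrap, which carries melanocortin receptors to the cell surface, fell by 1.09 ± 0.31 (adjusted p = 0.01) on day 2 in WT skin and rose by 0.77 ± 0.31 (adjusted p = 0.049) on day 4 in D6-deficient skin, where day 0 had been the lower of the 2 genotypes (9.30, 9.54 and 8.82 against 10.44, 10.12 and 10.62). That rise was no longer called without any 1 of 5 of its 6 arrays, the exception being day 0 replicate 2, nor without the filter on low values or with the replicate block (adjusted p of up to 0.21).

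Of the 6 uptake and transport genes 4 fell by day 4 in WT skin and 2 in D6-deficient skin, where 21.8% and 22.4% of all probe sets fell. Acsl1, which activates long-chain fatty acids, fell in both, by 1.18 ± 0.17 (adjusted p = 4.5e-06) and 0.89 ± 0.17 (adjusted p = 0.00012), with no overlap between the arrays of day 4 and day 0 in either. Cd36, the fatty acid translocase, fell in WT skin by 0.94 ± 0.22 (adjusted p = 0.0016), and Lpl, lipoprotein lipase, by 0.60 ± 0.14 (adjusted p = 0.0016). Their D6-deficient values by the quoted probe sets were -0.19 ± 0.22 (adjusted p = 0.52) and -0.16 ± 0.14 (adjusted p = 0.38). On the dimmer Cd36 probe sets the D6-deficient day 4 arrays lay below those of day 0. They read 10.91 to 11.65 against 11.69 to 11.80, and 8.47 to 9.18 against 9.53 to 9.80. Fabp4, the fatty acid carrier of the adipocyte cytosol, passed the test on no day in either genotype by its quoted probe set. The 30 arrays of that probe set lay between 13.84 and 14.35. On the dimmest Fabp4 probe set the WT arrays read 8.10 to 9.03 on day 4 against 9.36 to 9.61 on day 0. On its other probe sets the WT arrays of these days overlapped. Aqp7, the glycerol channel, was higher in D6-deficient skin on day 2 (1.09 ± 0.40, adjusted p = 0.032) and day 6 (1.07 ± 0.40, adjusted p = 0.042) than on its own day 0 by its quoted probe set. Its other probe set, of about the same brightness (mean 6.21 against 6.68), gave 0.21 ± 0.43 (adjusted p = 0.75) and 0.11 ± 0.43 (adjusted p = 0.88). The calls were also lost without day 0 replicate 1 or 2, and without replicate 2 or 3 of day 2 or of day 6, and the day 6 call without day 0 replicate 3 as well. In WT skin the quoted Aqp7 probe set was not called on day 4 (adjusted p = 0.12). The other one read 5.07, 5.26 and 4.20 on day 4 against 6.43, 6.39 and 6.87 on day 0. The mean of the Aqp7 probe sets was called lower there (-1.25, adjusted p = 0.016).

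Slc2a4, which encodes the insulin-responsive glucose transporter GLUT4, was lower on every day after TPA in both genotypes by its quoted probe set. The WT arrays read 9.96, 9.43 and 9.91 on day 0, 8.47, 8.78 and 8.95 on day 1, 8.57, 8.29 and 8.41 on day 2, 8.40, 8.37 and 8.16 on day 4, and 8.49, 8.22 and 8.63 on day 6. Among D6-deficient mice the values were 9.49, 9.63 and 9.36 on day 0, 8.52, 8.51 and 8.76 on day 1, 8.15, 8.15 and 8.33 on day 2, 8.59, 7.84 and 8.07 on day 4, and 8.27, 7.67 and 8.56 on day 6. The arrays of every later day lay below all day 0 arrays of their genotype. The changes ran from -1.03 ± 0.20 (adjusted p = 0.00044) on day 1 to -1.46 ± 0.20 (adjusted p = 2.7e-06) on day 4 in WT skin, and from -0.89 ± 0.20 to -1.33 ± 0.20 in D6-deficient skin. Its other probe set was not called on day 1 in either genotype, with -0.56 (adjusted p = 0.08) in D6-deficient skin. GLUT4 is also a skeletal muscle protein, and all 11 muscle genes of a marker list were lower on the same 4 days in both genotypes. The part of muscle in the Slc2a4 signal was not tested.

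The genes of triglyceride synthesis included Agpat2 and Pck1, next to Rbp4 in the size of their fall in WT skin. Of the 5 genes 4 fell by day 4 in WT skin and 2 in D6-deficient skin, where 21.8% and 22.4% of all probe sets fell. Agpat2, the acyltransferase whose loss causes lipodystrophy, read 11.85, 11.74 and 12.34 on day 0, 11.16, 11.54 and 11.94 on day 1, 10.79, 10.64 and 10.43 on day 2, 9.69, 10.63 and 9.09 on day 4, and 10.84, 11.15 and 10.45 on day 6 in WT skin. D6-deficient skin gave 10.83, 10.81 and 10.52 on day 0, 10.39, 11.19 and 11.61 on day 1, 10.61, 10.13 and 10.63 on day 2, 9.19, 9.46 and 9.74 on day 4, and 10.92, 9.97 and 11.25 on day 6. Its fall in WT skin was -1.36 ± 0.34 (adjusted p = 0.0042) by day 2 and -2.17 ± 0.34 (4.51-fold; adjusted p = 1.8e-05) by day 4, and it was still -1.16 ± 0.34 (adjusted p = 0.016) on day 6, a call lost without replicate 3 of day 0 or of day 6. In D6-deficient skin the fall by day 4 was -1.26 ± 0.34 (adjusted p = 0.0043), from a day 0 level that lay below that of every WT day 0 array.

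Pck1, which encodes the phosphoenolpyruvate carboxykinase that adipocytes use to make glycerol phosphate, fell in both genotypes by its quoted probe set. In WT skin it read 10.80, 9.64 and 10.47 on day 0, 9.04, 11.24 and 9.12 on day 1, 10.49, 9.97 and 10.40 on day 2, 8.34, 9.02 and 7.39 on day 4, and 10.94, 10.75 and 11.40 on day 6. In the other genotype it read 9.97, 11.10 and 10.60 on day 0, 9.98, 9.95 and 9.94 on day 1, 10.31, 10.75 and 10.06 on day 2, 7.74, 9.21 and 8.86 on day 4, and 10.40, 10.43 and 11.42 on day 6. All day 4 arrays lay below the day 0 and day 6 arrays of their genotype. The falls were -2.05 ± 0.48 (4.15-fold; adjusted p = 0.0015) and -1.95 ± 0.48 (3.87-fold; adjusted p = 0.0021), and the difference between them was 0.10 ± 0.68 (adjusted p = 0.98). By its other tested probe set the D6-deficient change was -1.15 and was not called (adjusted p = 0.12). On that probe set the D6-deficient arrays read 6.50, 8.48 and 8.16 on day 4 against 8.36, 9.05 and 9.18 on day 0.

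Gpd1, the glycerol phosphate dehydrogenase that supplies the backbone of triglyceride, was the only member called between the genotypes on day 0. In WT skin it read 10.97, 11.04 and 11.24 on day 0, 10.39, 10.96 and 11.04 on day 1, 10.43, 9.92 and 10.10 on day 2, 9.46, 9.72 and 9.13 on day 4, and 10.68, 10.33 and 10.31 on day 6. D6-deficient arrays gave 9.66, 10.24 and 9.18 on day 0, 10.27, 10.84 and 10.82 on day 1, 10.23, 9.72 and 10.32 on day 2, 9.96, 9.60 and 9.48 on day 4, and 10.48, 9.74 and 10.40 on day 6. On day 0 every D6-deficient array lay below every WT array, and from day 1 on the genotypes overlapped. Gpd1 fell in WT skin by 0.94 ± 0.25 (adjusted p = 0.0068) by day 2 and by 1.65 ± 0.25 (adjusted p = 1.2e-05) by day 4, and rose in D6-deficient skin by 0.95 ± 0.25 (adjusted p = 0.0043) by day 1. Dgat2, which adds the last fatty acid, fell by 0.84 ± 0.27 (adjusted p = 0.015; lost without day 0 or day 4 replicate 3) by day 4 in WT skin, with a D6-deficient value of 0.29 ± 0.27 (adjusted p = 0.42). Its other probe set gave -0.58 by day 4 in WT skin and was not called (adjusted p = 0.1). Dgat1 was called lower in WT skin on day 6, by 0.60 ± 0.19 (adjusted p = 0.03), and lost this call without day 0 replicate 1 or 3 or day 6 replicate 2 or 3.

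Of the transcription factors, Cebpa fell more widely than Pparg. In WT skin Cebpa read 11.33, 11.20 and 11.54 on day 0, 10.96, 11.19 and 10.74 on day 1, 11.18, 11.03 and 11.05 on day 2, 10.19, 10.43 and 9.94 on day 4, and 11.14, 10.84 and 11.16 on day 6. D6-deficient skin gave 11.63, 11.72 and 11.61 on day 0, 10.99, 11.00 and 11.20 on day 1, 10.88, 10.64 and 10.97 on day 2, 10.08, 10.45 and 10.56 on day 4, and 10.95, 10.48 and 11.10 on day 6. The D6-deficient arrays of every later day lay below all day 0 arrays of that genotype, and in WT skin those of day 4 stood lowest. The changes were -1.17 ± 0.16 (adjusted p = 3.3e-06) on day 4 in WT skin, and -0.59, -0.83, -1.29 and -0.81 (SE 0.16 each) on days 1, 2, 4 and 6 in D6-deficient skin, all called. Pparg fell by 0.66 ± 0.25 (adjusted p = 0.042) on day 4 in WT skin, a call that was lost without any 1 of the WT day 0 arrays, without WT day 4 replicate 3, and with each array centred on its median (range of adjusted p over the alternatives 0.027 to 0.24). C/EBPα is also made by keratinocytes and myeloid cells, and PPARγ by sebocytes.

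The remaining members were Adipor2, an adiponectin receptor of many tissues, and Car3, carbonic anhydrase 3 of fat and muscle. Adipor2 fell by 0.77 ± 0.21 (adjusted p = 0.0046) on day 4 in WT skin, but its second probe set had the opposite sign, at 0.45 (adjusted p = 0.27). Car3 fell on day 4 in both genotypes, by 0.46 ± 0.10 (adjusted p = 0.00091) and 0.36 ± 0.10 (adjusted p = 0.0063). On day 6 its quoted probe set was not called against day 0 in WT or D6-deficient skin (adjusted p = 0.49 and 0.25). The mean of the Car3 probe sets was called lower on day 6, at -0.8 (adjusted p = 0.018) and -0.7 (adjusted p = 0.027). The WT rise from day 4 to day 6 was not called on the dimmest Car3 probe set (adjusted p = 0.56).

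Between days 4 and 6 the fall in WT skin was followed by a rise. Of the 29 genes 17 rose and 0 fell (12.1% of all probe sets higher, 10% lower), with 20 higher and 0 lower at an unadjusted p under 0.05 (18.2% of all probe sets higher). Pck1 rose by 2.78 ± 0.48 (6.85-fold; adjusted p = 0.00015), Rbp4 by 2.48 ± 0.42 (5.58-fold; adjusted p = 0.00011), Lgals12 by 1.70 ± 0.30 (adjusted p = 0.00021), Retn by 1.33 ± 0.30 (adjusted p = 0.0021) and Adipoq by 1.20 ± 0.21 (adjusted p = 0.00021). The Slc2a4 value was 0.14 ± 0.20 (adjusted p = 0.67). The count was 10 when WT day 4 replicate 3, which read lowest of its group for all 17, was left out, and Cidec, Lipe, Pnpla2, Lpl, Aqp7, Agpat2 and Car3 were then no longer called. In D6-deficient skin 6 genes rose (Pck1, Lgals12, Agpat2, Retn, Acsl1 and Cebpa) and 2 fell (Angptl4 and Dgat1) between days 4 and 6, where 16.8% of all probe sets were higher and 14.5% lower. That count was 5 without D6-deficient day 4 replicate 1 and also 5 without day 6 replicate 1. By the unpaired t-test of the study's methods after Benjamini-Hochberg adjustment, only 1 member was called in WT skin and 0 in D6-deficient skin.

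Set directly against each other on the same day, the genotypes differed in few adipocyte genes. On day 0 Gpd1 was lower in D6-deficient skin by 1.39 ± 0.25 (2.63-fold; adjusted p = 0.0049), the only one of the 29 called, where 1.57% of all probe sets were called. Fitted on the 6 arrays of that day alone Gpd1 was no longer called, and Agpat2 (adjusted p = 0.034) and Retn (adjusted p = 0.026) were, and with the methods' t-test after Benjamini-Hochberg Gpd1 had an adjusted p of 0.24. Agpat2, Mrap and Retn were next, at -1.26 ± 0.34 (adjusted p = 0.058), -1.18 ± 0.31 (adjusted p = 0.051) and -1.13 ± 0.30 (adjusted p = 0.055), and all 3 passed the test with the set of hybridization controls as a covariate. These sets were inferred here by clustering the arrays on their hybridization control probe sets, and no sample label gives them. On day 2 Retn was lower in D6-deficient skin by 1.53 ± 0.30 (2.89-fold; adjusted p = 0.0024), the only member called, against 4.45% of all probe sets.

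On days 1, 4 and 6 limma called 0 of the 29 genes between the genotypes, against 0.0555%, 0.513% and 0.125% of all probe sets. At an unadjusted p under 0.05 the counts were 1, 10 and 1, and the methods' t-test gave 1, 5 and 0. The shares of all probe sets given here and below are those of limma, and none was taken for the t-test. The 10 genes on day 4 were all higher in D6-deficient skin, where 5.03% of all probe sets were higher at that threshold, and 8.01% and 8.37% were called in either direction on days 1 and 6. They were led by Adipoq at 0.87 ± 0.21 (adjusted p = 0.064). The 3 D6-deficient arrays of that day read 12.85, 13.86 and 13.66 for Adipoq and the WT arrays 12.74, 12.85 and 12.17. Without D6-deficient replicate 1 the Adipoq difference was 1.18 (adjusted p = 0.0054), over a range of 0.0054 to 0.69 across the alternatives.

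The change from day 0 was also compared between the genotypes. On day 4 Gpd1 was called (1.64 ± 0.35, adjusted p = 0.03) and no other member, where 0.608% of all probe sets were called, so the 22 calls in WT skin and the 11 in D6-deficient skin are not, gene by gene, shown to differ beyond Gpd1. At an unadjusted p under 0.05 the change on day 4 was less negative or more positive in D6-deficient skin for 14 genes (5.64% of all probe sets) and the reverse for 0, and the methods' t-test gave 9. On day 2 Gpd1 was called as well (1.34 ± 0.35, adjusted p = 0.024; 5.4% of all probe sets). On days 1 and 6 limma called 0 members (0.0194% and 0.025% of all probe sets), with 1 and 5 at an unadjusted p (9.7% and 8.01%) and 1 and 2 by the methods' t-test. Both Gpd1 differences rest on day 0, since the levels of the genotypes on days 2 and 4 differed by -0.06 ± 0.25 and 0.24 ± 0.25. The day 4 call was lost on leaving out any of 10 of the 12 arrays, all but D6-deficient day 0 replicate 2 and day 4 replicate 3, and without D6-deficient day 4 replicate 1 Adipoq was called in its place (1.31, adjusted p = 0.03). The day 2 call was lost for 6 of 12 (WT day 0 replicate 3 or day 2 replicate 2, D6-deficient day 0 replicate 1 or 3, or day 2 replicate 1 or 3). Neither Gpd1 call held with the methods' t-test after Benjamini-Hochberg, which called 1 other member on day 2.

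**Figure D3:**
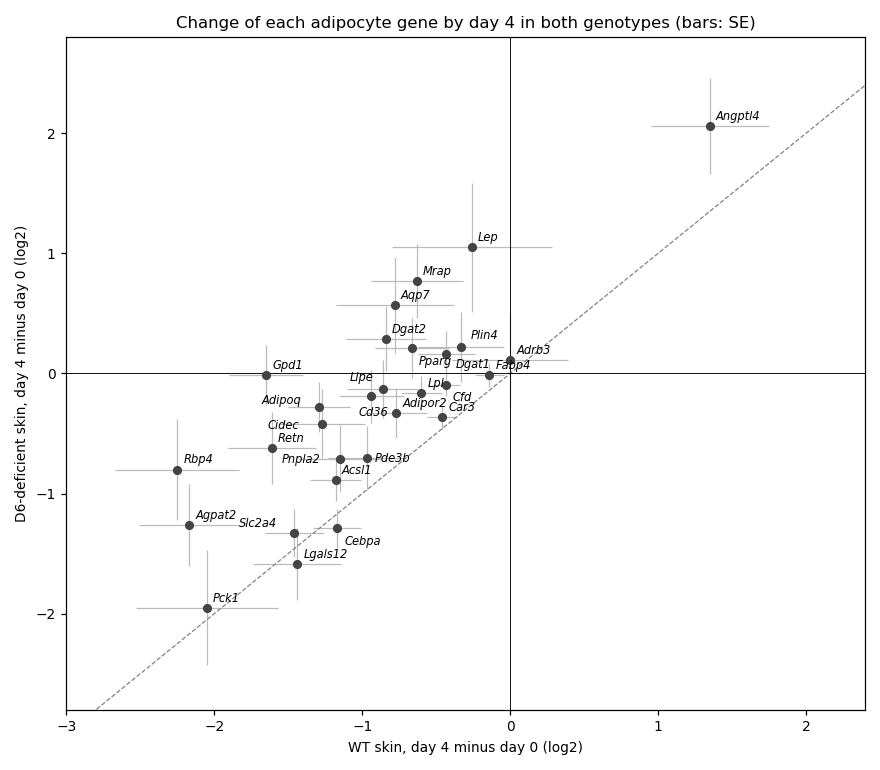
Change of each of the 29 genes from day 0 to day 4 in D6-deficient skin (vertical) against WT skin (horizontal), on the log2 scale, with bars of 1 SE and a dashed line of equal change. Pck1, Lgals12, Slc2a4 and Cebpa lie on or close to the line at the lower left, Rbp4, Retn, Adipoq and Gpd1 lie above it, and Angptl4 stands alone at the upper right.

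Other genes of fat metabolism, in 7 lists with 71 different genes of which 69 were tested, also fell on day 4. In WT skin 42 of the 69 fell and 10 rose (median -0.87), and in D6-deficient skin 34 fell and 12 rose (median -0.46). Of all probe sets 21.8% fell and 17.3% rose in WT skin and 22.4% and 18.8% in D6-deficient skin, which is the background for each list that follows. These lists too were chosen with earlier results of these data known. The genes of triglyceride and carbon flux gave 11 of 12 lower and 1 higher in WT skin and 8 lower and 1 higher in D6-deficient skin. Thrsp, a regulator of lipogenesis, fell by 5.34 ± 0.63 (adjusted p = 4.6e-07) and 3.79 ± 0.63 (adjusted p = 3.3e-05), and Elovl6, a fatty acid elongase, changed by -3.19 ± 0.27 and -4.23 ± 0.27. Fasn, fatty acid synthase, fell by 2.43 ± 0.39 in WT skin and 1.07 ± 0.39 in D6-deficient skin. Fasn, Acaca and Acly were already lower in D6-deficient skin on day 0, by 1.74, 1.74 and 1.31 (adjusted p = 0.024, 0.005 and 0.0039), 3 of the 12 genes of that list (1.57% of all probe sets).

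Among 9 insulin and adrenergic signalling genes tested, 7 fell on day 4 in WT skin and 4 in D6-deficient skin. Irs1, an adaptor of the insulin receptor, fell by 1.85 ± 0.16 and 1.86 ± 0.16, and Acvr1c, an activin receptor of adipocytes, by 1.98 ± 0.37 and 1.76 ± 0.37. Of the 13 other adipogenic factors 7 fell and 2 rose in WT skin, and Cebpd, which acts before C/EBPα in adipocyte formation, rose by 1.55 ± 0.16 and 2.01 ± 0.16. Secreted products outside the members differed in direction, since 5 of 10 rose and 2 fell in WT skin. Rarres2 (chemerin), which other skin cells make as well, rose by 1.75 ± 0.21 (adjusted p = 5.4e-07). Nnat, neuronatin, changed by -3.09 ± 0.91 (adjusted p = 0.009) and -4.69 ± 0.91 (adjusted p = 0.0002). Of 7 brown and beige fat genes tested 5 fell in WT skin, and Cox8b and Cox7a1 among them are muscle genes too. Of 8 progenitor genes 3 fell and 1 rose in WT skin, Pi16 by 1.27 ± 0.24 and Cd34 by 1.44 ± 0.21. Of the 11 other droplet and lipolysis genes 8 fell and 1 rose, Mgll, which releases the last fatty acid, by 1.74 ± 0.27.

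Markers of other cell types moved in the same arrays. All 11 skeletal muscle genes were lower on every day after TPA in both genotypes, with a mean level of 13.67 to 13.85 on the WT day 0 arrays, 12.69 to 12.90 on day 4 and 12.37 to 12.93 on day 6. The mean of the 29 adipocyte genes went from 11.07 to 11.31 on day 0 to 9.93 to 10.51 on day 4 and 10.91 to 11.23 on day 6. Of the 8 sebaceous gland genes 5 fell on day 4 in WT skin and 8 in D6-deficient skin, and their mean was below that of day 0 on every later array. Dermal fibroblast genes changed less, 3 of 8 lower and 1 higher on day 4 in WT skin, with a mean of 12.47 to 12.68 against 12.69 to 13.14 on day 0.

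Within WT skin the neutrophil mean was highest on day 4, when the adipocyte mean was lowest, while in D6-deficient skin the neutrophil mean was highest on day 2 (10.62) and the adipocyte mean then was 10.72. Of 8 neutrophil genes 7 rose on day 4 in WT skin, their mean being 9.51 to 10.46 against 5.97 to 6.89 on day 0. On D6-deficient arrays that mean was 9.87 to 11.19 on day 2 and 10.15 to 10.99 on day 4. Of the 8 macrophage genes 6 rose on day 4 in each genotype, with means of 10.58 to 10.77 in WT skin against 9.58 to 9.93 on day 0. WT day 4 replicate 3, with the lowest adipocyte mean (9.93), had the highest neutrophil mean of its group (10.46), and D6-deficient day 4 replicate 1 had the lowest adipocyte mean (10.43) and the highest neutrophil mean (10.99) of its group. Among the D6-deficient day 2 arrays the order was the other way, since replicate 3 had the highest adipocyte mean (10.77) and neutrophil mean (11.19) and replicate 1 the lowest of both (10.69 and 9.87). Of 9 keratinocyte genes 3 fell and 4 rose on day 4 in WT skin, with a mean of 11.28 to 12.17 against 10.06 to 10.73. In D6-deficient skin 5 fell and 3 rose, with a mean of 10.65 to 11.33 against 11.15 to 11.96. On day 0, the day of the Gpd1 difference, the genotypes did not overlap in the keratinocyte, muscle, sebaceous gland, macrophage or blood endothelium mean. The fibroblast and neutrophil means did overlap on that day. The part of these cell types in the Gpd1 difference was not tested. The part of a changed mixture of cells in the adipocyte values was not tested.

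**Figure D4:**
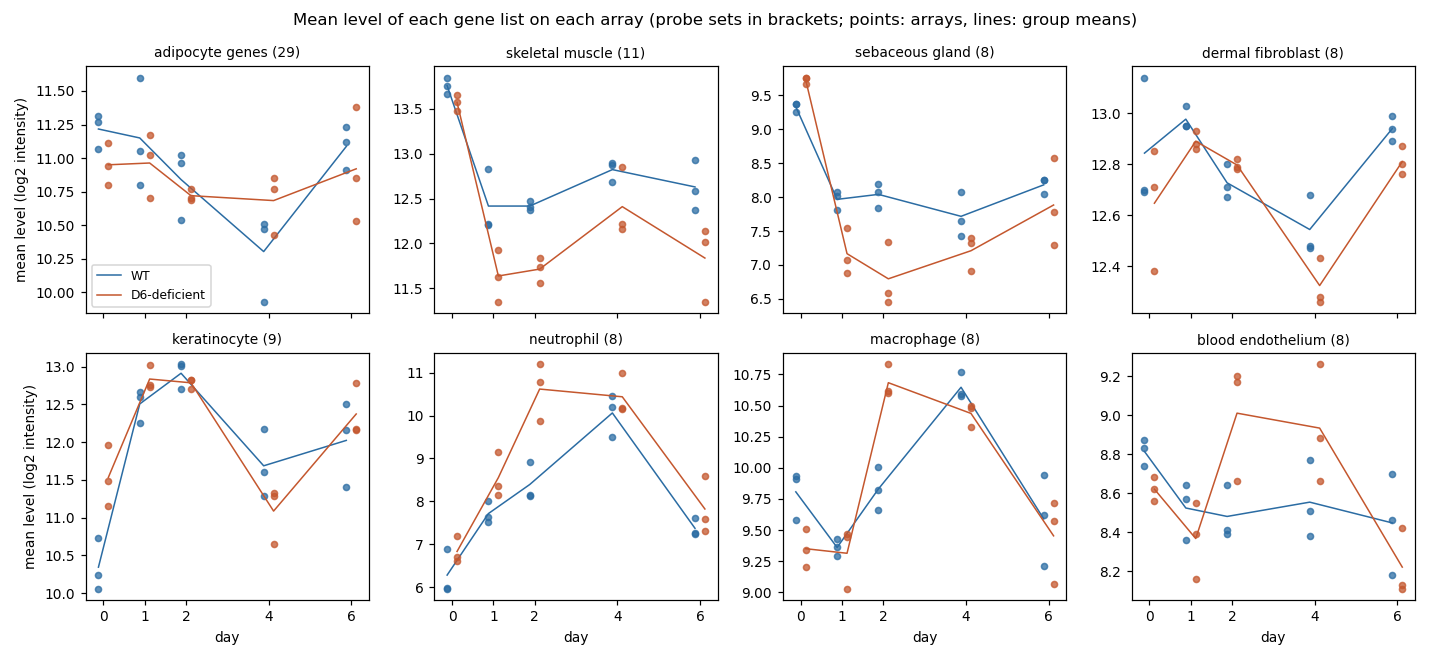
Mean log2 intensity of the 29 adipocyte genes and of 7 lists of cell type markers (panels, number of probe sets in brackets) against day, with each array as a point and group means joined by lines (blue WT, red D6-deficient). The WT adipocyte mean is lowest on day 4 (9.93 to 10.51), the muscle and sebaceous means fall on day 1 and stay below day 0, and the neutrophil mean of WT skin peaks on day 4.

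The probe sets of a gene did not always change by the same amount. Of the 15 genes with 2 or more tested probe sets, 10 had all of them called alike on day 4 in WT skin and 5 did not, and for D6-deficient skin the numbers were 9 and 6. Car3 fell by 0.46 on its quoted probe set and by 1.15, 1.74 and 1.74 on the other 3, and Lpl by 0.60 and 1.12. Dgat1 was uncalled on the quoted probe set (-0.43, adjusted p = 0.087) and rose on the other (0.68, adjusted p = 0.02). The quoted probe set of a gene changed less than its dimmest one in 7 of the 15 genes and more in 8. Counting each gene by its dimmest tested probe set, a choice made after seeing the data, 19 genes fell and 2 rose on day 4 in WT skin, 19 of these 21 being among the 22 called above. The highest value on any array was 14.98; the 30 arrays of Cfd read 14.00 to 14.58, those of Fabp4 13.84 to 14.35 and those of Car3 13.77 to 14.49.

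**Figure D5:**
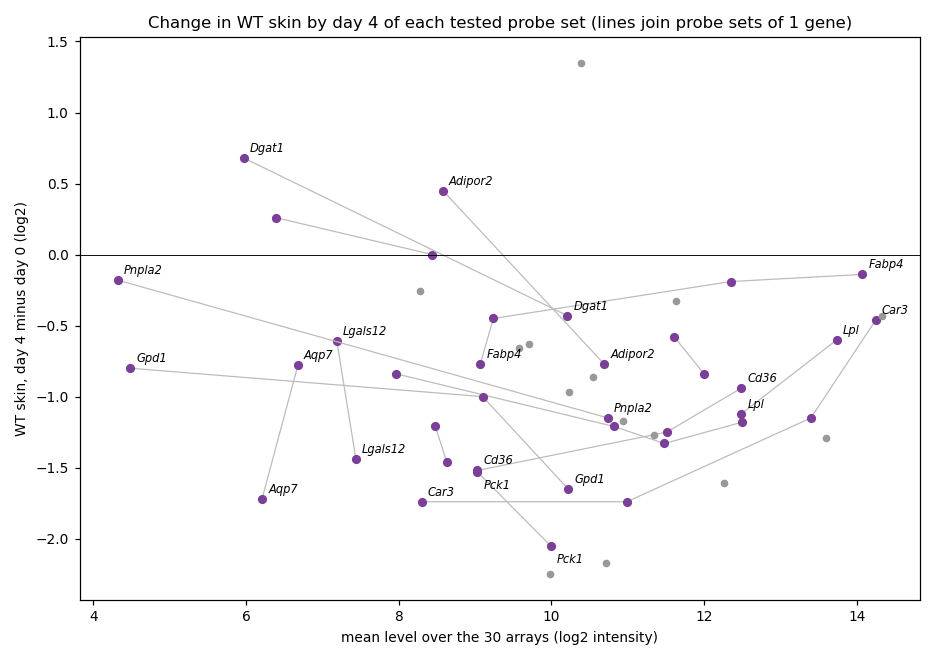
Change from day 0 to day 4 in WT skin (vertical, log2) against the mean level over the 30 arrays (horizontal, log2 intensity) for every tested probe set of the adipocyte genes, with purple points and grey lines for genes that have 2 or more. The Car3, Lpl and Cd36 lines rise towards 0 to the right, the Gpd1, Pnpla2 and Pck1 lines fall, and Adipor2 crosses 0.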

How the data were processed

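RNA of whole back skin was hybridised to 30 single-colour Affymetrix whole-genome mouse arrays, 3 per genotype and day. The authors normalized the arrays by robust multiarray analysis and deposited linear intensities for 45101 probe sets. A second deposited text holds a sample sheet and protocols without values and was not used, and versions of the authors' software are not given in the sources used here. Here log2 was taken, 64 control probe sets and the 20% of the other 45037 with the lowest mean were left out, and 36029 were tested with limma 3.58.1 (R 4.3.3; 1 mean per genotype and day, no covariate) with Benjamini-Hochberg adjustment at 0.05. The number of arrays limits the precision.

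The 31 members, their roles and all lists were chosen with earlier results of these data known. All members are named, and the 10 with the largest change from day 0 are given array by array. Alternatives were no filter, centring, contrast arrays alone, the methods' unpaired t-test, the mean of all probe sets of a gene, the replicate block, hybridization control sets, a fold of more than 3, each array left out, and, added after seeing the data, the dimmest probe set. The fit was tested on simulated data. Replicate numbers did not pair the arrays. Promoters and positions came from RefSeq tables of GRCm38.p6.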

Additional observations from a re-analysis of the deposited data

Results flagged for a closer look

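Gpd1 changed differently in the 2 genotypes from day 0 to day 2, by 1.34 ± 0.35 on the log2 scale (interaction contrast of limma, adjusted p = 0.024). It also did so from day 0 to day 4, by 1.64 ± 0.35 (adjusted p = 0.03). These were the interaction contrasts called among the 29 genes, and in each the WT level fell from 10.97, 11.04 and 11.24 on day 0 while the D6-deficient level started at 9.66, 10.24 and 9.18. The day 4 arrays read 9.46, 9.72 and 9.13 in WT skin and 9.96, 9.60 and 9.48 in D6-deficient skin. Over the alternatives other than the more than 3-fold rule the adjusted p ran from 0.0059 to 0.084 for day 2 and from 0.014 to 0.11 for day 4.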

How the results depend on the processing

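Of 85 calls of single genes, 26 held under every alternative other than the more than 3-fold rule. Over 1368 recomputed values 1087 stayed called in the same direction, 280 were no longer called and 1 reversed, Adipor2 on day 4 of WT skin, at 0.45 with its dimmest probe set. The cause was not tested. With more than 3-fold required, 5 genes were left on day 4 of WT skin, 3 on day 4 of D6-deficient skin, 3 of WT skin and 1 of D6-deficient skin between days 4 and 6, 1 for the change to day 4 between genotypes, and 0 in the other comparisons that had any. The methods' t-test after Benjamini-Hochberg called 15 on day 4 of WT skin, 7 on day 4, 2 on day 1 and 0 on day 6 of D6-deficient skin, 3, 0 and 0 on days 2, 1 and 6 of WT skin, 1 and 0 between days 4 and 6, and 0 between genotypes on days 0 and 2 and for the change to day 4. For the change to day 2 it called 1, which was not Gpd1. Unadjusted, it called 8 on day 2 and 6 on day 6 of WT skin, 12 on day 2 of D6-deficient skin, 6, 1 and 5 between genotypes on days 0, 1 and 4, and 1, 6, 9 and 2 for the changes to days 1, 2, 4 and 6. No share of all probe sets was taken for these t-test counts. Fitting the arrays of a contrast alone called 2 between genotypes on day 0 (Agpat2 and Retn, not Gpd1), 3 and 0 for the changes to days 2 and 4 and 5 in D6-deficient skin between days 4 and 6, and the mean of all probe sets called 2 on day 0 between genotypes. With the hybridization control sets (17 and 13 arrays) as a covariate there were 4 between genotypes on day 0 and 2 on day 1 of WT skin. Those sets were inferred from the control probe sets and are not a labelled batch.

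Leaving out 1 array gave 1 to 4, 4 to 5, 19 to 22 and 1 to 3 calls on days 1, 2, 4 and 6 of WT skin and 3 to 5, 3 to 6, 8 to 12 and 2 to 5 of D6-deficient skin. Between days 4 and 6 it gave 10 to 17 for WT skin and 5 to 9 for the other genotype. Between genotypes it gave 1 to 1 on days 0 and 2, 0 to 1 on day 4 and 0 on days 1 and 6, and for the change 0 to 1 on days 2 and 4 and 0 on days 1 and 6. Calls on day 1 of WT skin rose to 4 without replicate 2 of day 1, those on day 6 fell to 1 without replicate 3 of day 0 or of day 6, those on day 2 of D6-deficient skin fell to 4 without day 0 replicate 1 or 2 or day 2 replicate 3 and to 3 without day 2 replicate 2, and those on day 6 rose to 5 without day 6 replicate 3.

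Same-numbered arrays of different groups had a median correlation of deviations of -0.01 (from -0.35 to 0.48), and 12 of 30 were closest to their own number, so the replicate block was an alternative only: with it 22 genes were called on day 4 of WT skin, 9 on day 4 and 6 on day 2 of D6-deficient skin, and no count moved by over 1.5 times. Probe sets near the top of the scale, and genes shared with other cells of the skin, limit what these levels show for fat.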
